A study of Homo sapiens with 6 samples.

Results

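The genes described here encode the translation initiation factors (EIF) and elongation factors (EEF) of human cells, with their inhibitors, kinases and modifying enzymes. Members were all rows of the gene table whose symbol begins with EIF or EEF followed by a digit and further letters or digits. Of 206 such rows among 36459 gene symbols, 127 with a pseudogene name were left out and 79 remained. Expression was measured by poly-A RNA sequencing in PC9 cells, an established human lung adenocarcinoma line that carries an activating EGFR mutation. The parental group (3 libraries, from 3 cultures) was PC9 grown without drug. The persister group (3 libraries, into which 9 cultures had been pooled) was the PC9 cells that survived erlotinib, a drug that inhibits EGFR's kinase activity, given at 15 µM over 6 days. Both groups were the same single cell line, and the drug and the persister state were always present together, so an effect of erlotinib itself and of the persister state cannot be told apart.

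Translation begins when the small ribosomal subunit, carrying eIF1, eIF1A, eIF3, eIF5 and the ternary complex of eIF2, GTP and initiator tRNA, is recruited to the capped 5′ end of an mRNA by the eIF4F complex. That complex consists of the cap-binding protein eIF4E, the scaffold eIF4G and the RNA helicase eIF4A. Cells slow initiation in 2 well-known ways: eIF2 kinases phosphorylate the alpha subunit of eIF2, and unphosphorylated eIF4E-binding proteins hold eIF4E away from eIF4G. Elongation is carried out by eEF1A, which delivers aminoacyl-tRNA, its exchange factor eEF1B, and eEF2, which moves the ribosome along the mRNA. All of these steps are controlled on the proteins themselves, and the values below are mRNA levels.

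The libraries held between 29476725 and 34893782 gene counts. The epithelial genes EPCAM, KRT8, KRT18, KRT19, CDH1 and EGFR lay at 205.6 CPM (counts scaled to a common library total) or more in every library, whereas the lung lineage markers NKX2-1 and NAPSA lay under 1 CPM in all 6. The 9 epithelial and lung markers summed to 6204 to 6579 CPM in parental and 4231 to 4381 in persister libraries, with lower KRT8, KRT18 and KRT19 and higher CDH1 and EGFR in every persister library. Markers of other cell types were low but moved: 4 of 5 leukocyte genes stayed under 1 CPM (CD3E at 0 in every library), while CD68 brought their sum to 74.7 to 76.5 CPM in parental and 19.6 to 22.6 in persister libraries. The 3 endothelial genes summed to 8.05 to 8.82 against 3.25 to 3.804 CPM. The 5 fibroblast genes, almost entirely COL1A1, summed to 10.4 to 11.0 against 27.4 to 30.8 CPM. The part of these genes in the results below was not tested.

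Of the 79 members, 66 had enough counts to be tested. The 13 others were EIF4E1B, EIF4E3, EIF4EBP3, EIF1AY and 9 names from EIF4BP1 to EIF4BP9, which the annotation calls pseudogenes; none had more than 28 counts over the 6 libraries. Between persister and parental cells 46 of the 66 passed the limit of an adjusted p under 0.01 (69.7%), against 56.8% of all 14626 genes tested. In the persister state 19 members were higher and 27 lower, where 28.7% of all genes were higher and 28.1% lower. Changes were small for most: 12 of 66 members (5 higher, 7 lower) also passed a 1.5-fold change, against 23.9% of all genes. The median log2 fold change of the tested members was -0.056, and that of all genes tested -0.0061. The groups did not overlap for 55 members, against 71.3% of all genes. Here and below CPM are scaled by TMM, log2 fold changes are persister minus parental with their standard error (SE), group values are mean ± SD with n = 3 libraries, and adjusted p-values are edgeR's quasi-likelihood test over all genes tested. The p-values weigh the difference between groups against the spread between these libraries. Persister libraries were pools of cultures, so their spread and SD are between pools and not between single cultures. A level in bulk RNA is a share of the library's RNA, so fewer cells with a transcript and less of it per cell cannot be told apart.

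**Figure D1:**
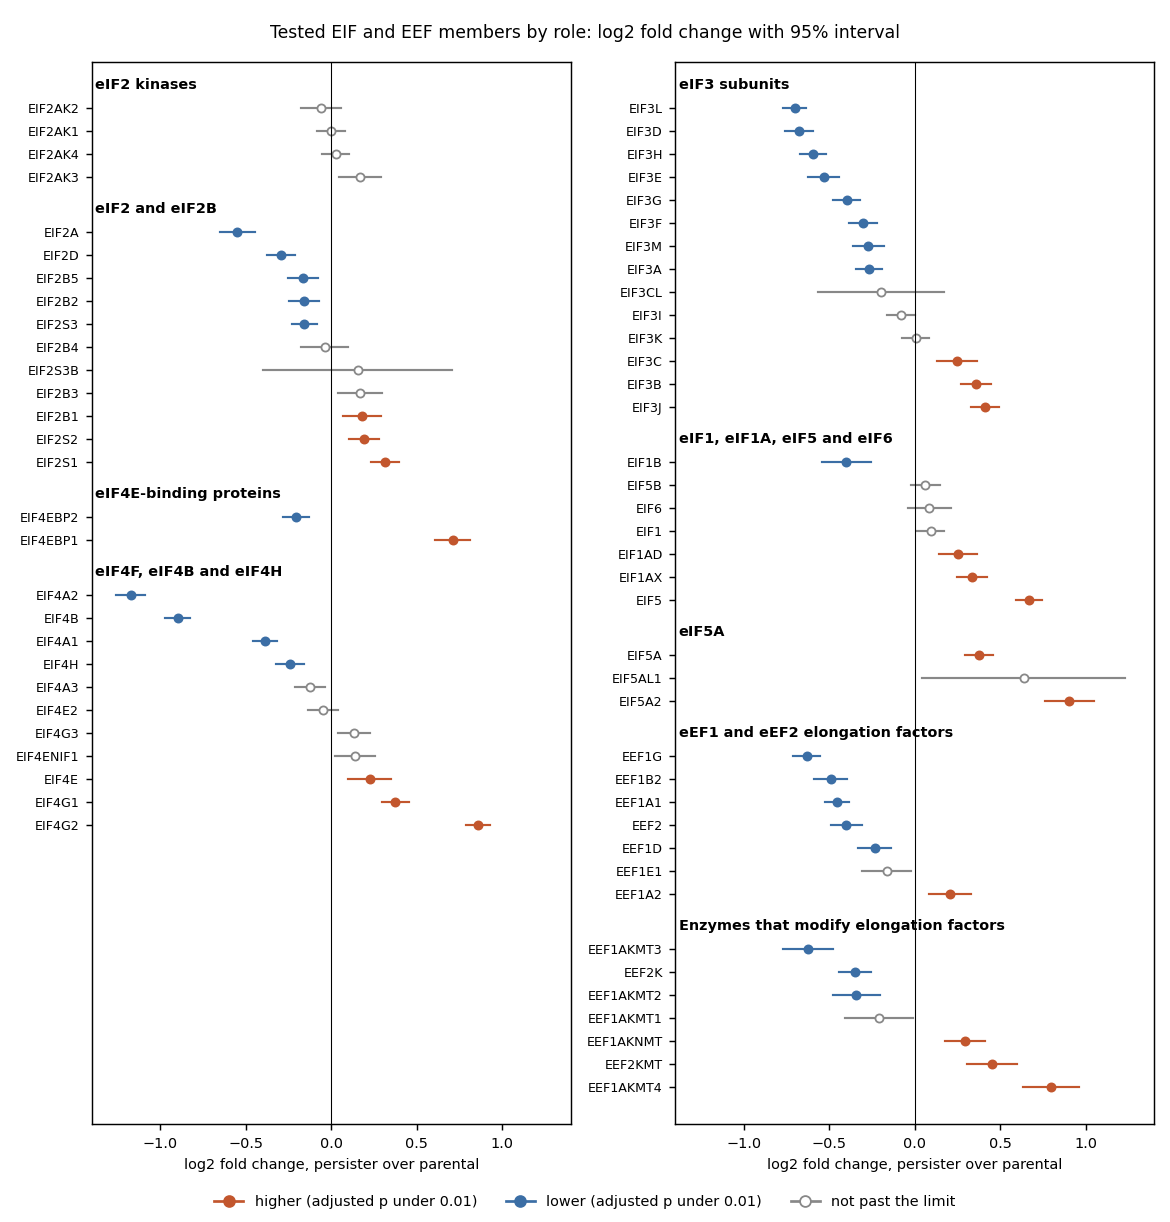
Log2 fold change (x axis, persister over parental, 3 libraries each) of the 66 tested members, grouped by role. Points are the fitted values and lines their 95% intervals; filled orange points passed the limit as higher (19), filled blue points as lower (27), and open grey points did not pass. Both directions occur among the eIF4 factors and the eIF3 subunits, and all 4 eIF2 kinases are open points.

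Summed over all members, the counts took up less of the persister transcriptome. Their summed share of all gene counts was 3.54 to 3.58% in the parental libraries and 2.76 to 2.81% in the persister libraries. Much of this was EEF1A1, the main gene for eEF1A, which ranked first by count among all genes in each of the 6 libraries and took 1.59 to 1.63% of parental and 1.13 to 1.16% of persister counts. Those ranges did not overlap. The 9 members of the TOP list described below, EEF1A1 among them, took 2.37 to 2.41% of parental and 1.62 to 1.67% of persister counts. The fall in the summed share thus lay mostly in these 9 genes. The 57 tested members outside that list had a median log2 fold change of 0.026, with 19 higher and 18 lower.

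The eIF2 kinases did not pass the limit, although each is the sensor of a different stress. EIF2AK1 (HRI, heme and mitochondrial stress) lay at 402.7, 384.9 and 383.1 CPM in the parental libraries and at 384.7, 401.1 and 383.6 in the persister libraries. Its log2 fold change was -0.0015 ± 0.036 (SE) with a 95% interval of -0.082 to 0.079. EIF2AK2 (PKR, double-stranded RNA) had an interval of -0.18 to 0.054 and EIF2AK4 (GCN2, uncharged tRNA) one of -0.054 to 0.11. For these 3 kinases the groups overlapped, and a change within those intervals could not be detected. EIF2AK3 (PERK, endoplasmic reticulum stress) was the exception in its pattern: it read 21.6, 19.5 and 21.6 CPM in parental and 23.7, 23.3 and 23.5 in persister libraries. These groups did not overlap, yet the log2 fold change of 0.17 ± 0.056 had an adjusted p of 0.0203, which passes a limit of 0.05 and not the one used here.

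The subunits of eIF2 did pass the limit. EIF2S1, the alpha subunit that the kinases phosphorylate, rose from 147.2, 143.5 and 151.4 CPM to 184.6, 186.2 and 179.6 CPM (log2 fold change 0.32 ± 0.037, adjusted p = 1.97e-05). The groups were far apart relative to their spread. EIF2S2, the beta subunit, rose by 0.19 ± 0.039, and EIF2S3, the gamma subunit that binds GTP and tRNA, fell by 0.16 on the log2 scale (SE 0.034), so the 3 subunits of 1 complex did not move together. The call of EIF2S3 was lost without persister 3 (adjusted p = 0.0131). The count ratio of EIF2AK3 to EIF2S1 went from 0.142 to 0.128 in the mean and did not overlap between groups. Of the 5 subunits of eIF2B, the exchange factor that recharges eIF2 with GTP, EIF2B1 rose (0.18 ± 0.050, adjusted p = 0.00814), EIF2B5 and EIF2B2 fell (log2 fold changes of -0.17 and -0.16), and EIF2B3 and EIF2B4 did not pass the limit. Each of these 3 calls was lost without parental 3, persister 1, persister 2 or persister 3 (adjusted p from 0.0107 to 0.0489). EIF2B1 also lost it with upper-quartile normalization (0.0320), library size only (0.0469), the stricter filter (0.0117) and counts summed from transcripts (0.0111), and EIF2B5 with summed transcripts (0.0120). EIF2A and EIF2D, which can bring initiator tRNA to the ribosome without eIF2, both fell, EIF2A from 144.7 ± 6.41 to 98.9 ± 4.23 CPM (log2 fold change -0.55 ± 0.047).

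Of 18 tested regulators that act around eIF2 in the stress response, 12 were higher and 3 lower (83.3%, against 56.8% of all genes), with a median log2 fold change of 0.47. The 4 with the smallest p were NUPR1 (1.76 ± 0.058), ATF3 (1.60 ± 0.050), SESN2 (1.65 ± 0.078) and CEBPG (1.06 ± 0.037), which are transcriptional regulators or, for SESN2, an inhibitor of mTORC1. ATF4, whose mRNA is translated more when eIF2 is phosphorylated, rose less at the mRNA level (0.21 ± 0.035). ATF4 and the next gene were named after their values were seen. PPP1R15B, which directs a phosphatase to eIF2, went from 105.2 ± 3.15 to 163.7 ± 3.78 CPM. The 3 that fell were OMA1 (-0.79 ± 0.051), NCK1 (-0.41 ± 0.066) and DELE1 (-0.31 ± 0.039), also named after their values were seen.

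The eIF4E-binding proteins went in opposite directions. EIF4EBP1 stood at 63.3, 68.0 and 65.3 CPM in parental and at 104.5, 104.6 and 112.2 CPM in persister libraries, a log2 fold change of 0.71 ± 0.045 (adjusted p = 1.73e-07). EIF4EBP2 stood at 262.4, 256.7 and 264.8 against 227.3, 229.5 and 223.0 CPM, a log2 fold change of -0.21 ± 0.034 (adjusted p = 0.000257). Neither pair of groups overlapped. EIF4EBP3, with 28 counts in all, was not tested, and its reads cannot be told apart from the read-through transcript it shares with the neighbouring ANKHD1.

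Their target EIF4E read 61.1, 51.7 and 56.4 CPM in parental and 66.6, 64.8 and 66.3 in persister libraries. Its rise of 0.22 ± 0.057 (adjusted p = 0.00486) was small, and leaving out any one of 4 libraries (parental 3, persister 1, persister 2 or persister 3) lost the call, with adjusted p-values of 0.0137 to 0.0204, as did upper-quartile normalization (0.0174) and library size only (0.0185). Within a library the count ratio of EIF4EBP1 to EIF4E was 1.04, 1.32 and 1.16 in parental and 1.57, 1.61 and 1.69 in persister libraries. The ratio of EIF4EBP2 to EIF4E was 4.30, 4.96 and 4.69 against 3.41, 3.54 and 3.36. Both ratios therefore differed without overlap, in opposite directions. With 3 libraries a side the exact two-sided permutation test cannot go below p = 0.1, and both ratios reached that value. Ratios of gene counts do not correct for transcript length, and a ratio is compared only with itself between groups.

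**Figure D2:**
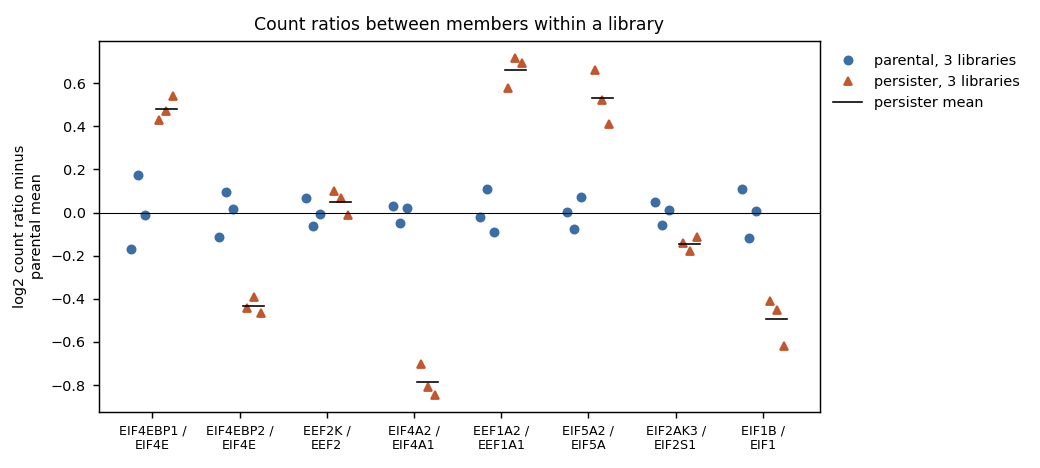
Log2 count ratio within a library (y axis), relative to the mean of the parental libraries, for the 8 pairs of genes compared. Circles are the 3 parental and triangles the 3 persister libraries, and the black bar is the persister mean; 7 pairs do not overlap between groups and EEF2K to EEF2 does.

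Of the eIF4F genes, both helicase genes fell and the scaffold gene EIF4G1 rose. EIF4A2 (chromosome 3, 186783205 to 186789897, plus strand, GRCh38), one of 2 closely related helicases that unwind the 5′ end of mRNAs, was the member with the largest change. It read 644.2, 620.1 and 648.2 CPM in parental and 296.1, 277.3 and 274.6 in persister libraries. The lowest parental library thus held over 2 times the highest persister one, and the log2 fold change was -1.17 ± 0.040 (adjusted p = 1.23e-09). Its paralog EIF4A1 fell less, from 981.5, 998.8 and 995.0 to 749.4, 755.0 and 767.5 CPM (-0.39 ± 0.031). The count ratio of EIF4A2 to EIF4A1 was 0.643 in parental and 0.373 in persister libraries, a fold of 0.580. EIF4A3, a helicase of the exon junction complex rather than of eIF4F, had an adjusted p of 0.0151. It stayed outside the limit in 11 of 16 refits with other settings and passed it in the rest, with log2 fold changes from -0.40 to -0.11.

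EIF4B, which stimulates the helicase, showed the second largest fall. It went from 888.5, 872.6 and 893.1 to 466.6, 476.8 and 481.7 CPM (-0.90 ± 0.032, adjusted p = 2.07e-09). EIF4H, a smaller relative of eIF4B, fell by 0.24 on the log2 scale (SE 0.037). EIF4B, EIF4H and both helicase genes of eIF4F were therefore lower, while the scaffold gene EIF4G1 was higher.

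EIF4G2 (chromosome 11, 10797050 to 10808940, minus strand), also called DAP5, is a scaffold that lacks the eIF4E-binding part and serves initiation without it. It stood at 439.8, 433.4 and 438.6 CPM in parental and at 789.1, 808.0 and 782.2 in persister libraries, a rise of 0.86 ± 0.032 (adjusted p = 2.74e-09). EIF4G1, the main cap-dependent scaffold, rose less, from 829.1 ± 25.5 to 1075 ± 15.8 CPM (0.37 ± 0.035). EIF4G3, the other eIF4F scaffold, read 128.2 ± 5.62 and 140.6 ± 3.37 CPM (adjusted p = 0.0161), EIF4E2 had an adjusted p of 0.293 and EIF4ENIF1, the transporter that carries eIF4E into the nucleus, one of 0.0382. Of the 11 tested genes of this group, 3 were higher, 4 were lower and 4 did not pass the limit. The share called was 63.6%, near the 56.8% of all genes.

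**Figure D3:**
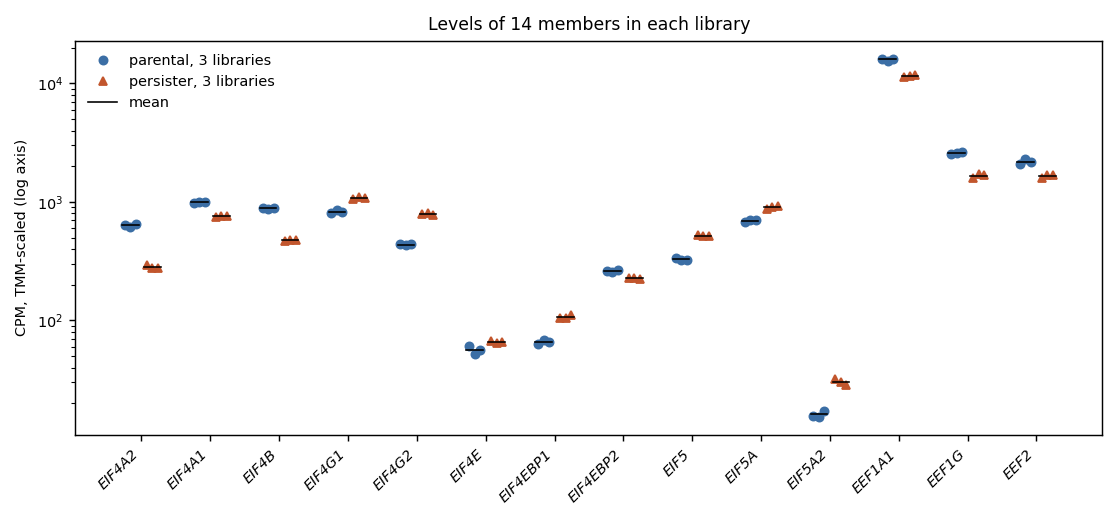
Level (y axis, TMM-scaled CPM on a log axis, not corrected for length) of 14 members in each of the 3 parental (circles) and 3 persister libraries (triangles), with group means as bars. EIF4A2 falls from 637.5 to 282.7 CPM and EIF4G2 rises from 437.3 to 793.1, and the groups do not overlap for any of the 14 genes.

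Of 21 tested genes that act with eIF4F at the cap and the poly(A) tail, 8 were higher and 4 lower. This was 57.1% of the list, against 56.8% of all genes, and the log2 fold changes ran from -0.42 to 1.81 with a median of 0.072. The upper end was CYFIP2, a partner of the repressor FMRP, which lay under 1 CPM in both groups and is named after its value was seen. The 4 with the smallest p were CTIF (0.83 ± 0.055) and NCBP1 (0.52 ± 0.036), which serve translation on the nuclear cap-binding complex, the helicase DDX3X (0.21 ± 0.034) and PAIP2B (-0.42 ± 0.072), an inhibitor of the poly(A)-binding protein. In the mTORC1 axis, the pathway that phosphorylates the eIF4E-binding proteins, 12 of 33 genes were higher and 7 lower, 57.6% of the list and thus also near the share of all genes. MTOR (0.84 ± 0.039), the kinase itself, LARP1 (0.62 ± 0.034), a repressor of mRNAs with a terminal pyrimidine tract, and DDIT4 (0.69 ± 0.057), an inhibitor of the pathway, rose. PDCD4, which binds and inhibits eIF4A, fell from 112.5 ± 4.85 to 63.2 ± 1.06 CPM (-0.83 ± 0.043).

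EIF4A2 also differed in which of its transcripts were counted. Transcript usage was tested for 58 members, of which 2 passed the limit of an adjusted Simes p under 0.01, against 1.95% of the 10393 genes tested, and 11 had an unadjusted p under 0.05. EIF4A2 had an adjusted p of 1.48e-10. Its annotated protein-coding transcripts took 71.4, 74.9 and 73.9% of its transcript counts in parental libraries and 53.6, 57.1 and 57.0% in persister libraries. Those with a retained intron took 6.08, 5.53 and 5.70% against 17.3, 14.6 and 15.2%, and those annotated as targets of nonsense-mediated decay 20.8 ± 1.51 against 28.4 ± 0.698%. None of these 3 classes overlapped between the groups.

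Most of the EIF4A2 counts that were lost were on coding transcripts. These held 15836, 15806 and 16139 counts in parental and 4637, 4985 and 5353 in persister libraries. Retained-intron transcripts held 1349, 1168 and 1244 counts against 1492, 1277 and 1431, and thus did not fall with the rest of the gene. A single one, EIF4A2-219 (5327 bases), rose from 3.12 ± 0.268 to 10.8 ± 1.09% of the gene's counts, while the main coding transcript EIF4A2-201 went from 52.4 ± 2.01 to 36.6 ± 5.49%. These shares are of counts and are not corrected for length. The count-weighted length of the gene's transcripts was 2017 bases, so a transcript as long as EIF4A2-219 takes a larger share of counts than of molecules. The EIF4A2 gene holds 5 annotated snoRNA genes, more than any other member, and 8 other members hold at least 1. Of these 9 host genes 4 were higher and 5 lower, so all passed the limit, against 69.7% of tested members and 56.8% of all genes. Whether holding snoRNA genes bears on these changes was not tested.

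**Figure D4:**
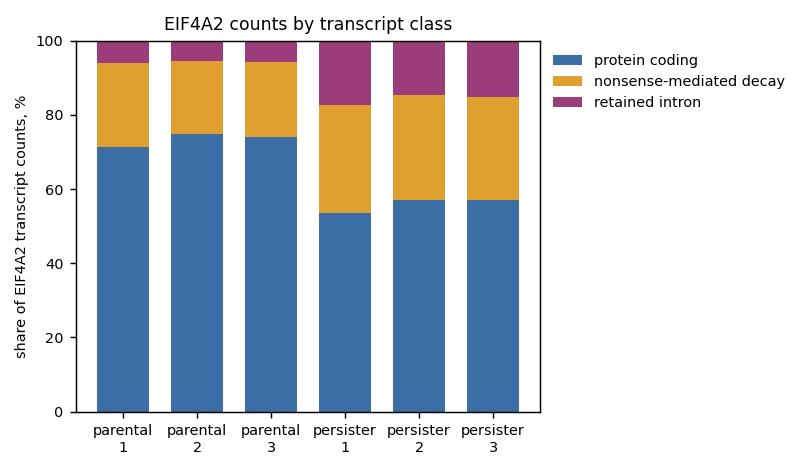
Share of the EIF4A2 transcript counts (y axis, percent) by annotated transcript class in each of the 6 libraries. Protein-coding transcripts make up 71.4 to 74.9% of the parental and 53.6 to 57.1% of the persister bars, and retained-intron transcripts 5.53 to 6.08% and 14.6 to 17.3%.

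EIF4A1 was the other gene past the limit for usage, at an adjusted p of 0.00984. That call was lost without any one of the 6 libraries (adjusted p from 0.0177 to 0.292), and its coding share of 95.97 ± 1.62% in parental and 94.2 ± 0.852% in persister libraries differed by little. Among the next genes by p, EIF4G1, EIF4E2 and EIF5 had adjusted p-values of 0.347, 0.397 and 0.449.

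The genes of eIF3, the largest initiation factor and a scaffold on the small ribosomal subunit, did not move as 1 unit. Of 14 tested genes for its 13 subunits, 3 were higher, 8 were lower and 3 did not pass the limit (78.6% called, against 56.8% of all genes). EIF3L fell the most, from 583.5, 591.3 and 594.5 to 361.7, 363.8 and 361.8 CPM (-0.70 ± 0.031, adjusted p = 1.01e-08). EIF3D, the subunit that can bind the cap itself, fell from 416.6 ± 10.4 to 260.1 ± 8.06 CPM (-0.68 ± 0.037) and EIF3H from 438.8 ± 11.997 to 290.5 ± 2.42 CPM (-0.60 ± 0.034). EIF3J, a loosely attached subunit that acts at the decoding site, rose the most, from 113.6, 109.5 and 107.6 to 145.9, 147.4 and 146.5 CPM (0.41 ± 0.037, adjusted p = 2.40e-06). No persister library of these 4 genes reached the range of the parental ones.

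Other eIF3 genes are named here after their values were seen. EIF3E (-0.53), EIF3G (-0.40), EIF3F (-0.30), EIF3M (-0.27) and EIF3A (-0.27) fell, and EIF3B (0.36 ± 0.040), which holds the b, g and i subunits together, rose. EIF3K had a log2 fold change of 0.0056 with a 95% interval of -0.074 to 0.085, and EIF3I one of -0.081 with an adjusted p of 0.0701. EIF3C and EIF3CL encode nearly the same protein, and reads between them may be divided wrongly. Separately, EIF3C rose (0.25 ± 0.053) and EIF3CL had -0.20 ± 0.17, with EIF3C at an adjusted p of 0.0112 without persister 3 and EIF3CL at 0.00859 without persister 2. With the counts of both summed, the log2 fold change was 0.16 (adjusted p = 0.00358).

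Per transcript length the subunit mRNAs became less unequal. Measured as CPM per kilobase of transcript, with EIF3C and EIF3CL summed, the highest of the 13 subunits was EIF3L in every library, at 396.2 to 403.7 in parental and 245.6 to 247.0 in persister libraries. The highest was 6.87 to 6.91 times the lowest in parental and 5.08 to 5.23 times in persister libraries. The coefficient of variation over the 13 subunits was 61.8 to 63.6% against 46.1 to 46.9%. The subunits with the highest parental levels per length, EIF3L, EIF3E, EIF3M and EIF3D, were all among the 8 that fell. For EIF3A, EIF3F, EIF3H and EIF3K the length rests on the 26.7 to 50.02% of their counts whose transcripts were matched to the annotation.

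**Figure D5:**
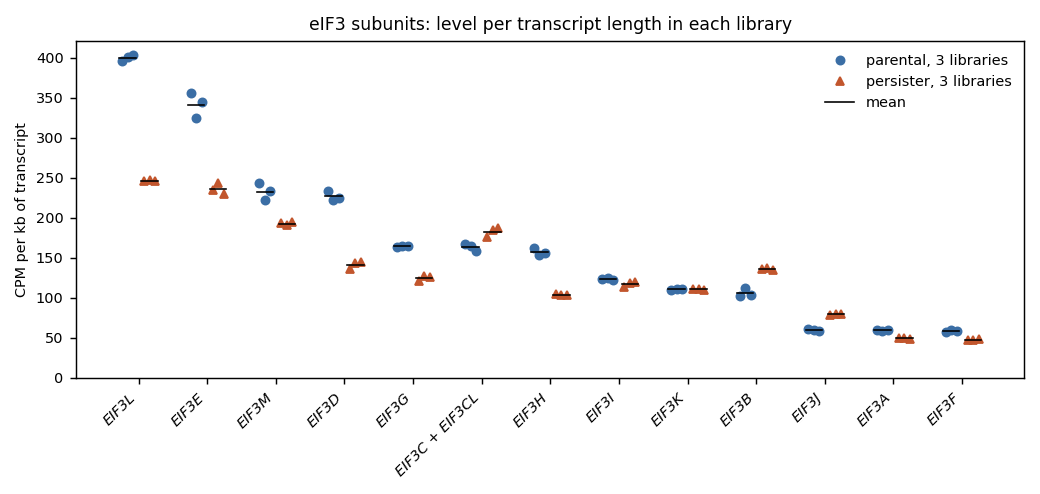
Level per transcript length (y axis, CPM per kilobase) of the 13 eIF3 subunits in each of the 3 parental (circles) and 3 persister libraries (triangles), ordered by the parental mean, with bars for group means. The highest, EIF3L, goes from a parental mean of 400.5 to 246.1, and the persister values span a narrower range than the parental ones.

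Among factors that act at the start codon, EIF5 changed the most. EIF5 triggers GTP hydrolysis by eIF2, and read 336.7, 321.7 and 322.3 CPM in parental and 527.5, 518.5 and 512.9 in persister libraries (0.67 ± 0.034, adjusted p = 3.16e-08). The scanning factor EIF1 was at 373.7 ± 10.7 and 398.7 ± 8.07 CPM (adjusted p = 0.0372), while its paralog EIF1B fell from 33.9 ± 2.23 to 25.7 ± 1.61 CPM (-0.40 ± 0.064). The ratio of EIF1B to EIF1 was 0.0905 against 0.0643. EIF1AX and EIF1AD rose (0.33 ± 0.039 and 0.25 ± 0.050), and EIF5B, which joins the subunits, and EIF6, which keeps them apart, had adjusted p-values of 0.174 and 0.203.

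Both main genes of eIF5A, the factor that helps ribosomes over difficult stretches such as runs of proline and that carries the modified lysine hypusine, rose. EIF5A2 (chromosome 3, 170888418 to 170908644, minus strand) stood at 15.7, 15.5 and 17.2 CPM in parental and at 31.9, 30.1 and 28.4 in persister libraries, the largest rise of any member (0.90 ± 0.064, adjusted p = 3.97e-07). The far more abundant EIF5A rose from 695.4 ± 18.4 to 900.1 ± 26.9 CPM (0.37 ± 0.037). The ratio of EIF5A2 to EIF5A went from 0.0232 to 0.0335 without overlap, so the minor gene remained a small part of the counts. EIF5AL1, a near-identical copy of EIF5A at 0.863 CPM in the mean, did not pass the limit (adjusted p = 0.0560). The enzymes that make hypusine differed: DHPS, which starts it, fell from 51.9 ± 2.26 to 30.4 ± 1.24 CPM (-0.77 ± 0.051), while DOHH, which completes it, rose from 5.89 ± 1.29 to 10.5 ± 0.294 CPM (0.84 ± 0.13). DOHH was named after its value was seen. Over the 9 enzymes of hypusine and of diphthamide, the modified histidine of eEF2, 3 were higher and 3 lower (66.7% of the list, against 56.8% of all genes). DPH6 (-0.67 ± 0.078) was among the latter, and DPH2 (0.53 ± 0.073) and DPH7 (0.50 ± 0.071) were among the former.

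The elongation factors fell almost as a group. Of 7 tested, 5 were lower, 1 was higher and 1 did not pass the limit (85.7% called, against 56.8% of all genes). Their median log2 fold change was -0.40. EEF1A1 went from 16164, 15555 and 16033 to 11385, 11580 and 11845 CPM (-0.46 ± 0.031, adjusted p = 2.59e-07). EEF1G, a subunit of the exchange factor, went from 2561, 2572 and 2612 to 1594, 1708 and 1694 CPM (-0.63 ± 0.036), and EEF2 from 2098, 2287 and 2172 to 1601, 1675 and 1692 CPM (-0.40 ± 0.040). In each of these 3 genes every persister library lay below every parental one. The other exchange factor subunits EEF1B2 and EEF1D fell by 0.49 (SE 0.044) and 0.23 (SE 0.044) on the log2 scale, and EEF1E1, a scaffold of the tRNA synthetase complex rather than an elongation factor proper, had an adjusted p of 0.0438.

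EEF1A2, the form of eEF1A known from neurons and muscle, was the exception. It read 105.3, 110.6 and 99.6 CPM in parental and 112.1, 125.8 and 126.3 in persister libraries (0.21 ± 0.055, adjusted p = 0.00643). The call was lost without parental 3, persister 2 or persister 3 (adjusted p 0.0313 to 0.0391), with upper-quartile normalization (0.0229), with library size only (0.0260) and with counts summed from transcripts (0.0104). As EEF1A1 fell, the count ratio of EEF1A2 to EEF1A1 rose by 1.58 times, from 0.00660 to 0.0104, and EEF1A1 stayed the dominant form by far. EEF1A1 has many near-identical pseudogenes, of which EEF1A1P5 (-0.45) and EEF1A1P6 (-0.40) were also called lower. How Kallisto divided reads among them was not tested.

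EEF2K, the kinase that inhibits eEF2, also passed the limit as lower. It read 46.7, 46.4 and 45.9 CPM in parental and 36.3, 37.2 and 35.6 in persister libraries (-0.35 ± 0.043, adjusted p = 2.83e-05). With counts summed from matched transcripts, which hold 3.36% of its count, the call was lost (-0.79, adjusted p = 0.0739). The ratio of EEF2K to EEF2 was 0.0212 and 0.0220, the groups overlapped, and the exact permutation p was 0.5. Of the lysine and other methyltransferases of elongation factors, EEF1AKMT3 fell from 15.3 ± 0.0377 to 9.93 ± 0.548 CPM (-0.63 ± 0.066), and EEF1AKMT4 rose from 8.19 ± 0.544 to 14.2 ± 0.542 CPM (0.79 ± 0.074). EEF1AKMT4 shares exons with a read-through transcript into ECE2, so part of its counts may belong there. EEF2KMT and EEF1AKNMT rose and EEF1AKMT2 fell, so that the 7 modifying enzymes divided into 3 higher, 3 lower and 1 not past the limit. The share called was 85.7%, against 56.8% of all genes.

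Most elongation factors, and some initiation factors, are known to have a 5′ terminal oligopyrimidine (TOP) tract, a run of pyrimidines beginning with the C at which the mRNA starts. Translation of such mRNAs is controlled by mTORC1 and LARP1. A list of 10 known TOP mRNAs among translation factors was chosen with earlier results of these data known. All 10 were lower, with a median log2 fold change of -0.47, where 28.1% of all genes tested were lower. These were EEF1A1, EEF1B2, EEF1D, EEF1G, EEF2, EIF3E, EIF3F, EIF3H, EIF4B and, outside the EIF and EEF names, the poly(A)-binding protein PABPC1 (-0.12). The 57 tested members outside the list had a median of 0.026, with 19 higher and 18 lower. Every member called higher was thus outside the TOP list. The cytosolic ribosomal protein genes, the largest class of TOP mRNAs, had 76 of 82 lower, 2 higher and a median of -0.56, whereas mitochondrial ribosomal protein genes had 22 of 78 lower, 8 higher and a median of -0.057. In either direction 95.1% of the former and 38.5% of the latter passed the limit, against 56.8% of all genes.

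The start of the mRNA is shown here for members of both directions because the TOP tract lies there. Each line gives 30 bases around a RefSeq start of the gene on GRCh38.p14, 5′ to 3′ on the gene's strand, 10 bases before the start and 20 from it on. EEF1B2, EIF4G2 and EIF5 have 2 annotated starts, and for them the start with the longer run is shown. Capitals mark the longest run of C and T that opens with a C within 3 bases of the start and has at least 5 bases.
EEF1A1, chr6:73521013-73521042, minus strand, lower: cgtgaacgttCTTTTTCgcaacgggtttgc
EEF2, chr19:3985444-3985473, minus strand, lower: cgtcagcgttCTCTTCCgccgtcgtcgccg
EEF1B2, chr2:206159885-206159914, plus strand, lower: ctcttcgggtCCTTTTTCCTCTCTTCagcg
EEF1G, chr11:62573872-62573901, minus strand, lower: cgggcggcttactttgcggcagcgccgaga
EIF4B, chr12:53006446-53006475, plus strand, lower: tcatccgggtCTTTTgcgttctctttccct
EIF3F, chr11:7987327-7987356, plus strand, lower: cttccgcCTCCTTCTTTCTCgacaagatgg
EIF4A2, chr3:186783567-186783596, plus strand, lower: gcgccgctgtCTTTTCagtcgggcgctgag
EIF3D, chr22:36529147-36529176, minus strand, lower: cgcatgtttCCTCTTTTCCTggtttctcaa
EIF4G2, chr11:10807977-10808006, minus strand, higher: tgtcggaagcaCTTCCCTaacttgcgcctg
EIF5, chr14:103334878-103334907, plus strand, higher: ggcacccctcggccgtgtgtcgcttcccgg
EIF5A2, chr3:170908618-170908647, minus strand, higher: cccgtctcttggaactgccgcggccgccac
EEF1AKMT4, chr3:184249662-184249691, plus strand, higher: gccggcggctctggctgcccggcggttgag
The first 6 are TOP-list members, the next pair, EIF4A2 and EIF3D, fell without being on the list and carry a tract too, and 3 of the 4 that rose have none. EEF1G has none at this start and EIF4G2 has one, so neither direction is without exception.

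Over all members with a start in the RefSeq promoter table (52 of 66 tested), such a tract was found at 12 of 20 lower members, 3 of 15 higher members and 3 of 17 that did not pass the limit, where 16.02% of 27305 genes have one. The 14 tested members without an entry include EIF3L, EIF3H, EIF3E, EIF3A, EIF3G, EEF1D and EEF1AKMT3, which fell. Of the 6 TOP-list members searched, 5 had a tract and are among the 12, so the contrast partly restates that list. When the run had to open within 1 base of the start, the counts were 12 of 20, 1 of 15 and 3 of 17, with 10.2% of all genes. Within 5 bases they were 13 of 20, 6 of 15 and 4 of 17, with 25.2% of all genes. The lower members thus held more tracts than the higher ones with each of the 3 windows, least so with the widest. A gene with several annotated starts was counted if any of them had a tract, so such genes had more chances. This search was designed after the fold changes were seen and is a description, as the annotated start is 1 position per transcript and may not be the start used in PC9 cells. The motif TGATGNAA, a form of the amino acid response element bound by ATF4 with CEBP proteins, was found on neither strand in the 300 bases around the start (250 before, 50 after) of any of the 52 members, where 4.46% of all genes have it. At that share few of 52 genes would have it, so its absence says little. EIF4EBP1, EEF1A2, EIF2S2 and EEF2KMT, which rose, had no entry and were not searched. The E-box CACGTG was found in 13 of 52 members and in 8.77% of all genes, at 5 of 20 lower and 4 of 15 higher members.

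By their medians, members that fell were more abundant and shorter than those that rose. The median level was 338.3 CPM for the 27 lower and 128.4 CPM for the 19 higher members, while over all genes it was 26.4 and 42.2 CPM. The median transcript length was 2075 bases for lower and 2563 bases for higher members, against 2417 and 3525 bases over all genes called lower and higher. Across the 66 members Spearman's rho between log2 fold change and transcript length was 0.201, and across 13977 genes 0.212; with mean CPM it was -0.266 and 0.124. These are correlations across genes that share the same 6 libraries, and genes are not independent replicates. The relation with length was thus about as strong among the members as among all genes, and that with level had the opposite sign.

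Other steps of translation were described by lists of their factors. For termination, recycling and non-canonical initiation, 7 of 10 tested genes were higher and 1 lower (80% of the list, against 56.8% of all genes), with a median log2 fold change of 0.27. Release factors ETF1 (0.44 ± 0.037) and GSPT1 (0.30 ± 0.033), the ATPase ABCF1 (0.44 ± 0.036) and the ribosome-binding HABP4 (0.65 ± 0.061) had the smallest p-values. Of 13 mitochondrial translation factors, 4 were higher and 3 lower, 53.8% of the list and near the share of all genes. Among them GFM2 (-0.72 ± 0.058), which recycles mitochondrial ribosomes, and the initiation factor MTIF3 (-0.63 ± 0.083) fell, and the release factor MTRF1L (0.61 ± 0.068) and the elongation factor GFM1 (0.31 ± 0.044) rose. Of 7 genes for selenocysteine insertion, 3 were higher and 2 lower (71.4%), with rises of the elongation factor EEFSEC (0.36 ± 0.055), SEPHS1 (0.31 ± 0.038) and SEPHS2 (0.22 ± 0.043) and a fall of TRNAU1AP (-0.64 ± 0.070).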

How the data were processed

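RNA of RNA integrity number 10 was used by the authors for poly-A TruSeq libraries, and 75-base reads were pseudoaligned to Ensembl transcripts of GRCh38.p13 with kallisto 0.46.1. The authors deposited its estimated counts, rounded to whole numbers and without normalization, per gene symbol and per transcript. Groups and replicate numbers came from the sample labels, the dose from the study's methods and the pooling from a figure legend of the study.

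Of 36459 symbols 27685 were matched to GENCODE 44 (GRCh38) by current and 647 by older symbol, and 167067 of 188753 transcripts were matched. For 9 tested members under 95% of the gene count lay on matched transcripts. Gene counts were tested on the whole table in R 4.3.3 with edgeR 4.0.16 (filterByExpr, TMM, glmQLFit and glmQLFTest, Benjamini-Hochberg, limit 0.01) and transcript usage with diffSpliceDGE. The SE is the log2 fold change divided by the square root of F. CPM per kilobase used the count-weighted length of matched transcripts, and EEF2K was left out of it. Ratios were tested by an exact two-sided permutation test in scipy 1.17.1 for 8 pairs. Libraries of one group differed by more than sampling noise (chi-square per degree of freedom 3.41 to 20.0) and were all kept. The tests were tried on simulated data.

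Members and lists were chosen with earlier results of these data known. Named genes were all eIF2 kinases and eIF4E-binding proteins; the 12 other members with the largest changes among those past the limit, without overlap and at 1 CPM or more; the eIF3 subunits at both extremes; the 5 most abundant elongation factors; both genes of each ratio; 4 genes per other list; and 5 members by usage p. Others are named as examples of counts, after their values were seen. Alternatives were DESeq2 1.42.0, limma-voom 3.58.1, other normalizations, filters and limits, counts summed from transcripts, a replicate block and leaving out each library.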

Additional observations from a re-analysis of the deposited data

How the results depend on the processing

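Of the 46 members past the limit, 38 passed it in 1 direction in all 16 refits, none changed sign, and 8 lost it somewhere. Some members not past the limit passed it in a refit, EIF4A3 most often. DESeq2 and limma-voom each called 46 members. Requiring a 1.5-fold change left 12 members, 5 higher and 7 lower, with 3 eIF3 subunits, 1 elongation factor and 1 eIF4E-binding protein, and a limit of 0.05 called 1 of the 4 eIF2 kinases. Leaving out 1 library gave 39 to 49 members (15 to 21 higher, 24 to 28 lower), 10 to 12 eIF3 subunits and 5 to 7 elongation factors. The sign of EIF2AK1 turned with DESeq2 (0.0017), its size factors in edgeR (0.0017), and no filter (0.0027), without parental 1 (0.022), persister 1 (0.010) or persister 3 (0.0092) within a range of -0.021 to 0.022 over the 6 libraries left out, and that of EIF2AK4 with upper-quartile normalization (-0.017) and library size only (-0.027). Transcript usage passed the limit for 4 members with the gene-level F test, 1 with the stricter filter, 1 with the replicate block and 1 to 2 without 1 library, EIF4A2 among them each time. With counts summed from matched transcripts the log2 ratio of EEF2K to EEF2 was -0.43 in place of 0.051, as 3.36% of the EEF2K count lay on such transcripts. The main test took the libraries as unpaired. Correlations of deviations were 0.124, 0.0236 and 0.0215 between same-numbered libraries and -0.117 to 0.0971 between libraries of different number. These few small values cannot settle whether the replicate numbers mark pairs. The replicate block gave 47 members, 20 higher and 27 lower. The summed EIF3C and EIF3CL counts were an alternative chosen after seeing the data. Low counts limit the 13 untested members, EIF2S3B and EIF5AL1, near 1 CPM or below, and EEF1AKMT1 (135 to 188 counts per library, log2 fold change -0.21, adjusted p = 0.0598).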
